A study of Mus musculus with 7 samples.

Results

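The 43 genes described here encode proteins of the sarcomere and the Z-disc, and they were taken by name. No measured value enters the choice of a gene, but the list was drawn up with earlier results of these data known. All 43 were found in the GENCODE M21 annotation of mm10, among 21938 protein-coding genes. Occupancy was measured by ChIP-seq in gastrocnemius, a calf muscle, of wild-type male C57BL/6J mice aged 5 months. Zeitgeber Time 4 (ZT4) was the sampling time for BMAL1 and for RNAP2, the RNA polymerase II complex, and ZT8 that for REV-ERBα, with 2 replicates each, and no mutant or other time point is compared here. A separate input library of muscle DNA, taken at ZT4, was the only input sample in the labels, the study's methods also name a replicate of it, and which input each list was called against is not given in the sources used here. Lists of different factors may therefore share an input. The labels do not say which animals gave which replicate, and whole muscle was used, with no sorting of cells.

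The sarcomere is the contractile unit of striated muscle, in which myosin thick filaments slide along actin thin filaments. Thin filaments of neighbouring sarcomeres are anchored in the Z-disc by α-actinin and its partners, thick filaments are held together at the M-band, and the giant proteins titin and nebulin span the thick and the thin filament as elastic link and as ruler. Many of these proteins exist as a fast and a slow isoform encoded by separate genes, and mouse gastrocnemius is built mostly of fast fibres. BMAL1 is the transcription factor that drives the clock through E-boxes (CACGTG), REV-ERBα is a nuclear receptor that represses transcription, and RNAP2 marks genes that are being transcribed or are poised for it.

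The deposited BMAL1 lists held 34737 peaks in replicate 1 and 177669 in replicate 2. Those of REV-ERBα held 28881 and 29934, and those of RNAP2 87870 and 168821. Values below are given for replicates 1 and 2 in that order. Peaks of a factor that overlapped between its lists were merged, and a region counted only when both replicates had a peak in it, which left 10752 RNAP2, 1263 REV-ERBα and 2742 BMAL1 regions. The window of a gene was its body plus 10 kb to either side of each annotated transcription start site (TSS). Strength means the smaller of the −log10 p values that the replicates gave for a region. These values rank peaks by how far they stand above the input, and many regions are weak. The median strength over all regions was 3.07 for RNAP2, 2.50 for REV-ERBα and 1.87 for BMAL1. The reads behind a single peak are unknown, so no counting interval can be given, and with 2 lists a factor no test between replicates was possible. The muscle label was borne out by RNAP2 regions at 5 of 5 muscle fibre markers, against 6 of 15 markers of other cell types, and both adipocyte and both hepatocyte markers had none.

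RNAP2 occupied most of the sarcomere genes. A region was present in both replicates at 35 of the 43 genes (81.4%), against 41.1% of the other 21895 protein-coding genes. Within 1 kb of a TSS, 30 genes had one, against 30.5% of the other genes. With 1 replicate alone the contrast in the window was smaller but kept its direction. Without replicate 1, 41 of the 43 genes had a peak, against 86.4% of the other genes, and without replicate 2 there were 42, against 76.9%. At a TSS, where the contrast also kept its direction, these were 35 (against 47.9%) and 38 (against 48.9%). All 11 thin filament genes, both giant filament genes, 12 of 14 Z-disc genes and 5 of 6 thick filament and M-band genes had a region. At the thin filament genes *Tnnc1*, *Tnnt1* and *Tnni1* the only region lay nearer to the start of another gene. A region was also present at 2 of 4 light chain genes, 2 of 4 Kelch and stretch-related genes and *Des* of the pair *Des* and *Cryab*. These last counts are too small to set apart from the 41.1%. Among the genes with a region, the median strength was 6.45, against 4.47 for the 8992 other genes with an RNAP2 region, which are the comparison genes from here on. The windows of both sets were of like size, with a median of 35579 bp and 37136 bp.

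The strongest RNAP2 region lay at the start of *Pdlim7*, which encodes a PDZ-LIM adaptor of the Z-disc (chr13:55495795-55513676), with −log10 p of 45.8 and 37.1. *Tpm1*, for the tropomyosin that winds along the thin filament (chr9:67022590-67049406), reached 62.5 and 33.2. *Tnnc2*, for the calcium sensor of the fast troponin complex (chr2:164777161-164779967), reached 60.9 and 30.6. These are high ranks: 71, 92 and 112 of the 8992 comparison genes were stronger. *Ttn*, for titin (chr2:76703980-76982547), followed with 64.7 and 28.4 and *Des*, for desmin, the intermediate filament that ties Z-discs together, with 42.1 and 19.0. *Mybpc2*, for fast myosin-binding protein C, had 26.4 and 15.4, *Ldb3*, for a PDZ-LIM protein that binds α-actinin, had 34.1 and 15.1, and *Myl1*, for the essential light chain of fast myosin, had 25.6 and 12.7. *Tpm2*, for another tropomyosin, had 44.1 and 10.8. Replicate 1 gave the larger value at the strongest region of 32 of the 35 genes, so these differences between replicates run one way.

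**Figure D1:**
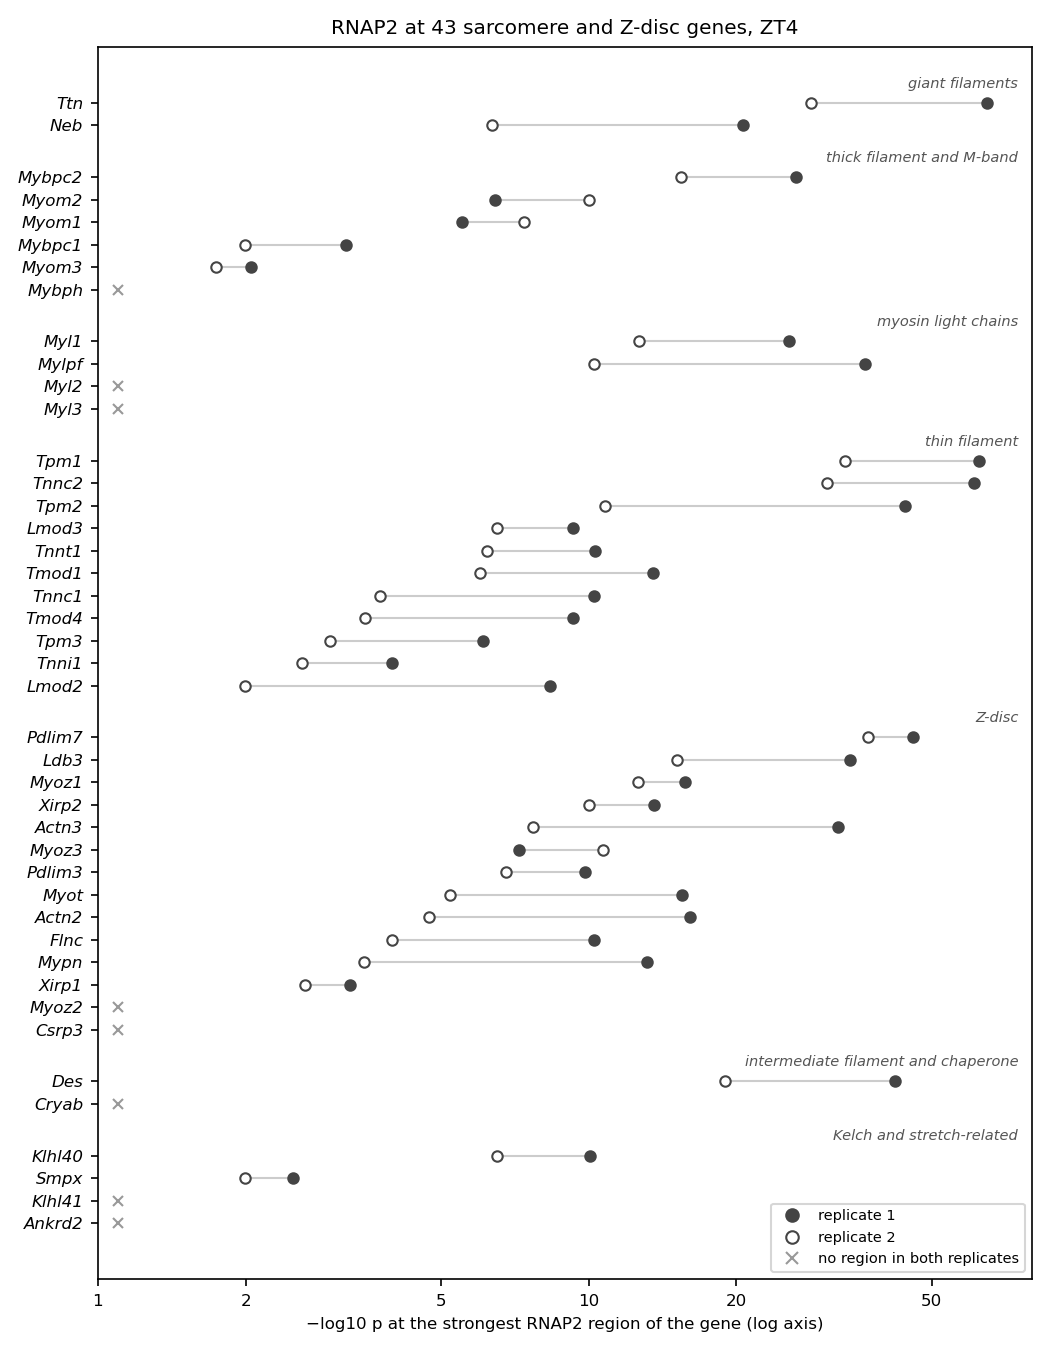
RNAP2 at the 43 genes, grouped by role: −log10 p (log axis) of replicate 1 (filled) and replicate 2 (open) at the strongest region of each gene, with a cross for genes with no region in both replicates. The highest values of replicate 1 are 64.7 at *Ttn*, 62.5 at *Tpm1* and 60.9 at *Tnnc2*, and 8 genes have a cross.

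At some genes the polymerase covered the body and not only the start. RNAP2 regions lay under 100% of the *Tnnc2* gene, which is 2807 bp long. That is the largest share possible, and the highest share among the comparison genes was also 100%. The share was 64.6% at *Myl1*, 55.9% at *Tpm2*, 54.4% at *Mylpf* (the regulatory light chain of fast myosin), 53.4% at *Des* and 50.8% at *Tmod4*, which caps the pointed ends of thin filaments in fast fibres. It was 36.9% at *Tpm1*, 36.7% at *Actn3* (the α-actinin of fast fibres) and 33% at *Mybpc2*. These 9 genes had over 20% of their length under RNAP2, while the median was 1.80% over the sarcomere genes with a region and 1.16% over the comparison genes. Without replicate 1 the medians were 4.42% and 3.02%. Long genes stayed low, with 1.8% at *Ttn* and 1.56% at *Neb*, for nebulin, although both had a promoter region. At *Neb* that region reached 20.6 and 6.34.

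Most of the remaining genes had RNAP2 at the start and at lower levels. Among the Z-disc genes, *Myot* (myotilin), *Pdlim3*, *Xirp2*, *Actn2*, *Mypn* (myopalladin), *Flnc* (filamin C) and *Xirp1* had between 3.26 and 16.1 in replicate 1 and between 2.64 and 9.996 in replicate 2. The leiomodins *Lmod2* and *Lmod3*, which nucleate or lengthen actin filaments, had 8.34 and 1.99, and 9.28 and 6.502. *Tmod1* had 13.5 and 6.00. At the M-band, which *Myom1*, *Myom2* and *Myom3* cross-link, values were 5.52 and 7.37, 6.45 and 9.996, and 2.06 and 1.74. *Myom3* was the weakest gene with a region, and its only one lay inside an intron. *Klhl40*, a Kelch protein that stabilises thin filament proteins, had 10.1 and 6.502. *Smpx*, a small stretch-responsive protein, had 2.50 and 1.99 and is the one gene on chromosome X, where the RNAP2 lists held 360 and 626 peaks in all, 102 of the 10752 RNAP2 regions lay, and the REV-ERBα lists held 26 and 31 peaks.

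8 genes had no RNAP2 region in both replicates: *Myl2*, *Myl3*, *Mybph*, *Myoz2*, *Csrp3*, *Cryab*, *Klhl41* and *Ankrd2*. Each still had a peak in at least 1 list, but none that overlapped between the lists. *Csrp3*, for the muscle LIM protein of the Z-disc, had a peak of 3.91 in replicate 1 and one of 2.60 in replicate 2, both within 1 kb of a start, which did not overlap. *Klhl41*, a Kelch protein related to *Klhl40*, had 5.65 at its promoter in replicate 1 and 3.26 upstream of it in replicate 2. *Ankrd2*, an ankyrin repeat protein of the stretch response, had 2.93 in replicate 1 and no peak in replicate 2, and *Cryab*, the small heat shock protein that guards desmin, had 3.35 beyond its end in replicate 1 and none in replicate 2. Absence from the lists is a statement about these thresholds and not about transcription.

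Fast and slow isoforms separated by occupancy. All 7 fast genes (*Myl1*, *Mylpf*, *Tnnc2*, *Mybpc2*, *Myoz1*, *Myoz3*, *Actn3*) had an RNAP2 region in both replicates and 4 of 7 slow genes (*Myl2*, *Myl3*, *Tnnc1*, *Tnni1*, *Tnnt1*, *Tpm3*, *Myoz2*) did. The median strength was 12.6 and 2.6, a difference of 10.03 in −log10 p, and the median share of the body under RNAP2 was 36.7% and 0%. The difference was 9.37 without replicate 1 and 21.7 without replicate 2. Counting only regions within 1 kb of a start, 6 of 7 fast genes and 1 of 7 slow genes had one. The regions of the slow genes *Tnnc1*, *Tnnt1* and *Tnni1*, which encode subunits of slow troponin, lay nearer to the starts of *Nisch*, *Ppp1r12c* and *Phlda3*, at 41, 26 and 4136 bp. *Tpm3* alone had a region at its own start, with 6.09 and 2.97. The strength of *Myoz1*, 12.6, also comes from a neighbour's start, that of *Usp54*, and its own promoter had 19.4 and 8.33. The regions of *Myoz3* lay upstream of its annotated start, the strongest at 4341 bp with 7.22 and 10.7. In whole muscle, a slow gene with few occupied nuclei and one with low occupancy in each nucleus cannot be told apart.

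Set side by side, the pairs differed in each list. For troponin C, *Tnnc2* had 60.9 and 30.6 and *Tnnc1* 10.2 and 3.76, the latter at the start of *Nisch*. For the regulatory light chain, the largest window peaks were 36.6 and 10.3 at *Mylpf* and 2.50 and 1.99 at *Myl2*. For the essential light chain they were 25.6 and 12.7 at *Myl1* and 3.97 and 5.52 at *Myl3*. In those pairs the fast gene was higher in both lists. For α-actinin, *Actn3* had 32.3 and 8.12 and *Actn2*, which all fibres use, 16.1 and 4.73. The 8.12 lies beyond the end of *Actn3*, 125 bp from a start of *Ctsf*, and the promoter of *Actn3* had 7.70 in that replicate. For myosin-binding protein C, *Mybpc2* had 26.4 and 15.4 and *Mybpc1* 3.21 and 2.69. For the calsarcins, which link α-actinin to calcineurin, *Myoz1* had 19.4 and 12.6, the latter at the start of *Usp54* (8.33 at its own), while *Myoz2* had no peak in replicate 1 and 2.60 in replicate 2. All 6 pairs thus point the same way, but the genes of a pair differ in length and neighbours, and no test was made over 6 pairs that were picked as pairs.

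RefSeq (GRCm38.p6) gives promoters of 300 bases, each from 250 before a start to 50 after it, for 34 of the 43 genes. The mean was 1.18 promoters per gene, against 1.22 over the protein-coding genes, and a gene counted when any of its promoters held the motif. CAGCTG, an E-box of the kind that myogenic factors bind, was in the promoters of 14 of 34 (41.2%), against 17.7% of 16522 protein-coding genes. The binding motif of MEF2 was in 5 of 34 (14.7%, against 3.23%), the CArG box in 3 (8.82%, against 1.75%), TATAAA in 6 (17.6%, against 14.3%), AGGTCA in 5 (14.7%, against 16.4%) and CACGTG in 1 (2.94%, against 9.18%). Both strands were searched. The MEF2 motif, the CArG box and TATAAA are rich in A and T and can overlap. CAGCTG was in 2 of the 4 fast and 4 of the 7 slow genes with a promoter here. The mean was 1 promoter per fast gene and 1.43 per slow gene, so more sequence was searched for each slow gene. A match says only that these letters are there. The promoters of the troponin C pair are shown because RNAP2 differed so widely between them, with the *Mylpf* promoter as a fast gene with CAGCTG, and capitals mark every motif searched.
*Tnnc2* promoter (chr2:164779685-164779984, minus strand): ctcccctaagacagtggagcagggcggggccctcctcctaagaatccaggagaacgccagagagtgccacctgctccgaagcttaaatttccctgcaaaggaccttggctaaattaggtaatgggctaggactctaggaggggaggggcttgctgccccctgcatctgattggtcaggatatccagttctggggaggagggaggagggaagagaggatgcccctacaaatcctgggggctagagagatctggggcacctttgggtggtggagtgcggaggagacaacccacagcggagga
*Tnnc1* promoter (chr14:31208062-31208361, plus strand): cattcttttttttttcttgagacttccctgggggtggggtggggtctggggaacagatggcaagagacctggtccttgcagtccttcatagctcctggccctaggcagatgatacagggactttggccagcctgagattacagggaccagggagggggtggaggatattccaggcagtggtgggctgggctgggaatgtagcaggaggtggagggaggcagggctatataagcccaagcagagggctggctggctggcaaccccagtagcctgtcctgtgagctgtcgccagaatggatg
*Mylpf* promoter (chr7:127211358-127211657, plus strand): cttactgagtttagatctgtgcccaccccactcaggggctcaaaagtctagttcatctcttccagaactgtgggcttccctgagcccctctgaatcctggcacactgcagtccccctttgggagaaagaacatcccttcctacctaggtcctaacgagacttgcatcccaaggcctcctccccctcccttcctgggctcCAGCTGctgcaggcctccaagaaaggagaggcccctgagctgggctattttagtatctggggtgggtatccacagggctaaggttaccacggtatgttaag
The *Tnnc2* and *Tnnc1* windows held none of these letters, and *Mylpf* held 1 CAGCTG.

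REV-ERBα regions were found at 17 of the 43 genes (39.5%). Of the 35 genes with RNAP2, 16 (45.7%) had one, against 8.35% of the comparison genes. With the window kept to 10 kb around a start, the count stayed 16 of 35, against 7.11%, and within 1 kb of a start it was 7 of 35 (20%), against 4.1%. Among the 1000 comparison genes with the strongest RNAP2 regions, 20.1% had a REV-ERBα region. The genes were spread over the roles: both giant filament genes, 3 of 6 thick filament and M-band genes, 2 of 4 light chains, 4 of 11 thin filament genes, 5 of 14 Z-disc genes, *Des*, and none of the 4 Kelch and stretch-related genes. 6 of 7 fast genes and 0 of 7 slow genes were among them. Counting only regions nearer to a start of the gene itself than to any other, 14 of the 43 genes had one, against 5.71% of the comparison genes under the same condition. The requirement of both replicates matters: without replicate 1 the count was 29 of 43, against 52.6% of the comparison genes, and without replicate 2 it was 30, against 49.7%. The counts over 43 genes include genes without an RNAP2 region, while every comparison gene has one.

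**Figure D2:**
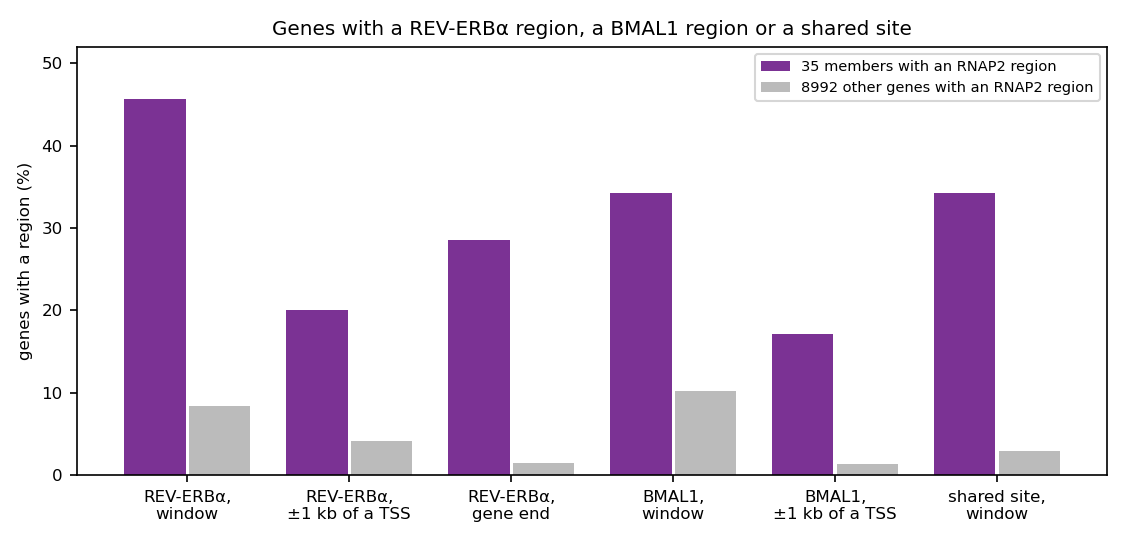
Share of genes, in percent, with a REV-ERBα region, a BMAL1 region or a shared site, for the sarcomere and Z-disc genes with an RNAP2 region (purple) and the comparison genes (grey), in the whole window, within 1 kb of a TSS or at the gene end. The purple bar is the higher one in each pair, 45.7% against 8.35% for REV-ERBα in the window and 34.3% against 10.2% for BMAL1.

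REV-ERBα was most frequent among the genes with the highest RNAP2 coverage. All 9 genes with at least 20% of the body under RNAP2 had a REV-ERBα region, against 27.1% of the 303 comparison genes with that coverage. From 5% to 20% it was 3 of 4 genes (against 12.8%), and from 1% to 5% it was 4 of 12 (against 6.17%). Of the 10 genes with an RNAP2 region and under 1% coverage, 0 had one, too few genes to set apart from the 7.37% of such comparison genes. The number of regions did not follow coverage: *Ttn* had 49 REV-ERBα regions at 1.8% coverage. The lists come from different times and antibodies, but possibly from the same input, and the part of the input in this was not tested.

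The strongest REV-ERBα region lay just upstream of *Myom1* (chr17:71002107-71002629), with −log10 p of 32.6 and 40.2 and fold enrichment of 8.28 and 9.74. Its summit was 128 bp from a start of the neighbouring *Myl12b*, which encodes a regulatory light chain of non-muscle myosin, and it lay upstream of the first start of *Myom1*. The lists do not tie the region to either gene. A weaker region lay in an intron of *Myom1*, with 3.02 and 2.91. *Tpm1* held 4 regions, and the widest spanned 12020 bp with 11.2 and 11.0, while another, over its promoter, spanned 11168 bp with 7.36 and 10.2. The median width of a REV-ERBα region was 810 bp. Wide regions can be chains of merged peaks: the *Tpm1* window held 7 and 9 REV-ERBα peaks. In the widest region the replicates had their summits at positions 67027050 and 67033509. *Myl1* held 3 regions, and the strongest, at its end, had 7.29 and 7.63. *Mybpc2* held 3, and the strongest, also at its end, had 6.26 and 7.63, but its summit was 19 bp from a start of *Fam71e1*. *Ldb3* had an intronic region of 5.41 and 4.99.

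*Mybph*, which encodes a relative of myosin-binding protein C, was the one gene with a REV-ERBα region and no RNAP2 region. A narrow REV-ERBα region of 491 bp lay in an intron (chr1:134195997-134196487), with 4.11 and 8.03, and was the only REV-ERBα peak of the gene in either list. RNAP2 had peaks of 2.50 upstream and 1.99 in an intron, in different lists and places. *Flnc* had a region 2393 bp upstream of its start, with 2.88 and 2.90, and *Myot* an intronic one with 2.50 and 2.15. *Tnnc2* had one at its promoter with 5.20 and 3.71 and *Myoz1* one upstream with 3.32 and 5.65, while *Mylpf* had 3.09 and 3.59 just beyond its end, 320 bp from a start of *Sept1*. *Tmod4*, *Actn3*, *Tpm2* and *Des* had their strongest region at the gene end. *Actn3* also had a weaker intronic region, with 2.088 and 2.645, its summits 1562 and 1214 bp from the start. The lowest values were those of *Neb*, with 2.02 and 2.04, and of *Des*, with 5.31 in replicate 1 and 1.72 in replicate 2.

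**Figure D3:**
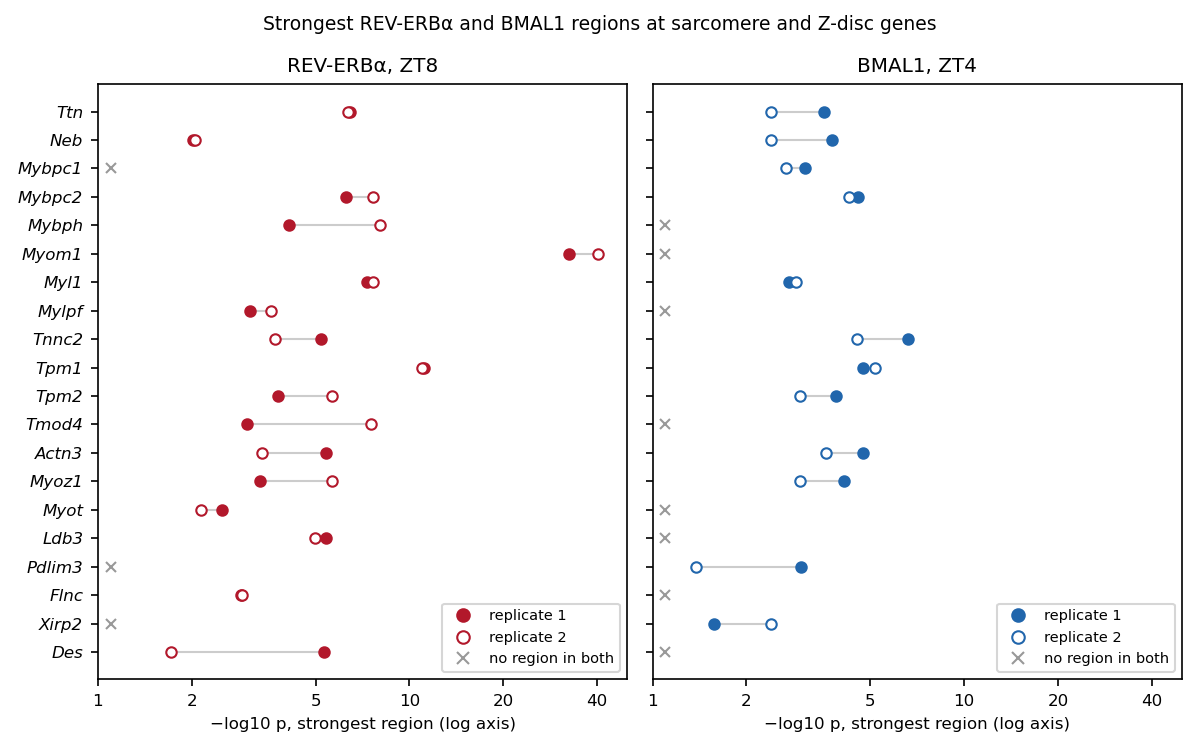
−log10 p (log axis) at the strongest REV-ERBα region (left) and BMAL1 region (right) of the 20 genes with either, for replicate 1 (filled) and replicate 2 (open), with a cross for no region in both replicates. *Myom1* stands apart for REV-ERBα at 32.6 and 40.2, and no BMAL1 value exceeds 6.60.

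Windows of 200 bases are shown for REV-ERBα regions described above, to let the sequence under them be read. Each is centred on the summit of the replicate with the higher −log10 p, and in the wide *Tpm1* region the summit of replicate 2 lay elsewhere, at position 67033509. Each is written on the strand of the sarcomere gene, 5′ to 3′, from mm10 (GRCm38.p6), and capitals mark the clock E-box CACGTG, the muscle E-box CAGCTG, the nuclear receptor half-site AGGTCA and the MEF2 motif on either strand.
*Myom1* and *Myl12b*, promoter (chr17:71002236-71002435, plus strand): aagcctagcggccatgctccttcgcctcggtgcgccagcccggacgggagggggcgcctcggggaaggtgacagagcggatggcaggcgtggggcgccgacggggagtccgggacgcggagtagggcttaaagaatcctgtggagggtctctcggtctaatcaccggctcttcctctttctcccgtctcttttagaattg
*Tpm1*, wide intronic region (chr9:67026950-67027149, minus strand): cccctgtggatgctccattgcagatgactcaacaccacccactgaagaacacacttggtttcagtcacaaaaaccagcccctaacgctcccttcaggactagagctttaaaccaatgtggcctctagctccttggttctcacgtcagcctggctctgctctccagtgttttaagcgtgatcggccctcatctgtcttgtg
*Tpm1*, intronic region with CACGTG (chr9:67037287-67037486, minus strand): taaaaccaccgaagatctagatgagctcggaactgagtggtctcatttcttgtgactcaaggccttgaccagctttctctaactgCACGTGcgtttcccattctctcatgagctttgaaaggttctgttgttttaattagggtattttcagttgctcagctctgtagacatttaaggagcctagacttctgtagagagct
*Myl1*, gene end (chr1:66923120-66923319, minus strand): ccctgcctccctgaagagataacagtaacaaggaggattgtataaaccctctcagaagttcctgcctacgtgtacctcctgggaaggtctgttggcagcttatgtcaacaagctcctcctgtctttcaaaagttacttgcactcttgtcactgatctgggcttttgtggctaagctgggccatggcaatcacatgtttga
*Mybpc2* and *Fam71e1*, gene end (chr7:44500306-44500505, minus strand): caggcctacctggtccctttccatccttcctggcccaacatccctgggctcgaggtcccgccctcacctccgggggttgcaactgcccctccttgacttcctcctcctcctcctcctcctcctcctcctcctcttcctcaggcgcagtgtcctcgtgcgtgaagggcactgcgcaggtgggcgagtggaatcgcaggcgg
*Mybph*, intron (chr1:134196019-134196218, plus strand): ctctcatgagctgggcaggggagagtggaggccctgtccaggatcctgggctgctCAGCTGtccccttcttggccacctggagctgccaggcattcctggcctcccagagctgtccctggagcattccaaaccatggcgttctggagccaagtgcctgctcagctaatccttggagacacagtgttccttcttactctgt
The *Mybpc2* window held a run of ctc repeats, whose part in the call was not tested. AGGTCA was in 4 of the 29 REV-ERBα windows outside *Ttn* (13.8%), against 13.1% of all 1263. CACGTG was in 1 of the 29 (3.45%, against 3.4%) and that was the *Tpm1* region with 6.27 and 5.56. CAGCTG was in 5 (17.2%, against 12.7%), the *Mybph* window among them. The MEF2 motif was in 2 (6.9%, against 4.2%).

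*Ttn* had the most regions. Of the 78 REV-ERBα regions in the windows of these genes, 49 lay at *Ttn*, and no other gene with an RNAP2 region had so many. *Mylk4*, a kinase gene outside the list, had 22, *Pfkfb3* 9, and *Tpm1* 4. Long genes in general had few. Of the comparison genes, 672 had windows of over 200 kb, and 85 of these had any REV-ERBα region, with a median of 0 and at most 5. *Neb*, with 241828 bp nearly as long as *Ttn* with 278568 bp, had 1. The regions of *Ttn* lay under 25.1% of the gene, with 20 in the first 100 kb, 18 between 100 and 200 kb and 11 beyond 200 kb. 24 had their summit in an intron, 21 in an exon and 4 within 1 kb of an annotated start.

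The *Ttn* regions were many but weak. Their strength ran from 1.33 to 6.34 with a median of 2.54, close to the 2.50 of all REV-ERBα regions, and 19 of 49 reached 3. The strongest, 2997 and 2609 bp from a start, had 6.45 and 6.34, and another at the start had 6.11 and 3.79. Each list showed the pattern alone: replicate 1 had 77 peaks over 22.7% of the gene and replicate 2 had 90 peaks over 28% of it. BMAL1 had 27 and 50 peaks over 7.02% and 6.98%, and RNAP2 14 and 13 peaks over 2.38% and 3%. RNAP2 regions at *Ttn* numbered 3, all near the gene start. Repeats and the level of the input along the gene were not examined here, and their part in the number of regions was not tested.

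**Figure D4:**
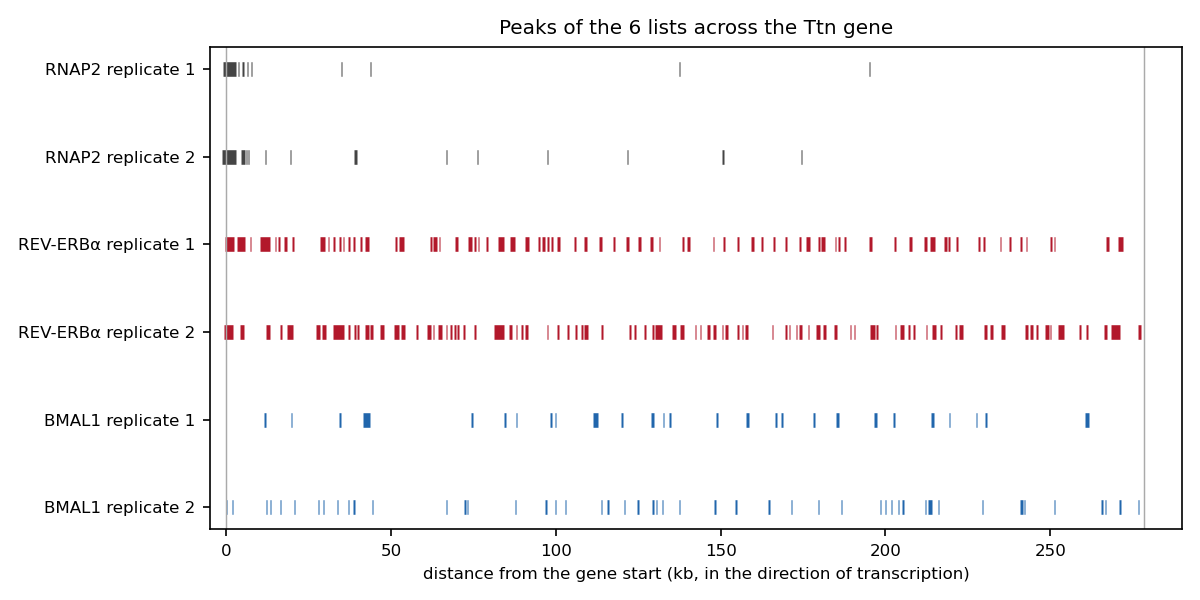
Peaks of the 6 lists along *Ttn*, drawn to scale in kb from the gene start in the direction of transcription, with grey lines at the start and the end of the gene. REV-ERBα peaks (red) run along the whole gene in both replicates, 77 and 90 in number, while the wide RNAP2 peaks (grey) lie at the start and BMAL1 peaks (blue) are fewer, 27 and 50.

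The strongest *Ttn* window and the strongest one with AGGTCA are shown to contrast a summit near the start with one deep in the gene.
*Ttn*, near the start (chr2:76977085-76977284, minus strand): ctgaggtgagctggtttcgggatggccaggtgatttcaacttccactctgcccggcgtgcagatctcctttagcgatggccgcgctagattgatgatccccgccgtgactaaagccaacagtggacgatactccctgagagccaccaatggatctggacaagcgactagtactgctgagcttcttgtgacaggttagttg
*Ttn*, intron (chr2:76808295-76808494, minus strand): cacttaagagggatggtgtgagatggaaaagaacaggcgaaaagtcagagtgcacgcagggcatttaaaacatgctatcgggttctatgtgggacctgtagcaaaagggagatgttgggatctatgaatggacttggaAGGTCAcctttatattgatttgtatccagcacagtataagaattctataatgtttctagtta
The second region had −log10 p of 6.08 and 3.75, and lay 174 kb from the gene start. AGGTCA was in 13 of the 49 *Ttn* windows (26.5%), against 13.1% of all REV-ERBα windows, while CACGTG was in 0 of them and CAGCTG in 6 (12.2%, against 12.7%). The 49 windows are from one locus, so they are not independent.

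REV-ERBα also lay at the ends of several genes. A region counted here when it reached into the stretch from 1 kb inside to 3 kb beyond the annotated end and did not reach within 1 kb of a start of the same gene, a rule set after the regions had been seen. By that rule 10 of the 35 genes with RNAP2 (28.6%) had REV-ERBα at the end, against 1.51% of the comparison genes and 5.8% of the 1000 with the strongest RNAP2 regions. Without replicate 1 there were 15 (against 8.47%) and without replicate 2 there were 14 (against 8.2%). The 10 were *Ttn*, *Actn3*, *Myl1*, *Tnnc2*, *Tpm2*, *Mybpc2*, *Myoz1*, *Myot*, *Des* and *Tmod4*. *Tpm2* had 3.78 and 5.65, its summits 1363 and 1110 bp beyond the end. *Tnnc2* had 3.47 and 4.99 at 925 and 1281 bp beyond, and *Myoz1* 4.15 and 3.18 at 2443 and 2746 bp beyond. *Tmod4*, with 3.02 and 7.54, had its summits within 167 bp of the end. At some of these ends another gene begins nearby. For *Actn3* (5.41 and 3.36) and *Mybpc2* the nearest start was that of *Ctsf* at 20 bp and *Fam71e1* at 19 bp, for *Tmod4* that of *Scnm1* at 924 bp and for *Tpm2* that of *Car9* at 1469 bp. At *Ttn* the region beyond the end had 5.04 and 12.3, and like that of *Myot*, with 5.91 and 2.72, it fell outside the window and is not among the regions counted above. RNAP2 had regions at the ends of *Actn3*, *Myl1*, *Tpm2*, *Mybpc2*, *Myoz1*, *Des* and *Tmod4* too, and at *Tnnc2* a single RNAP2 region ran from the promoter past the end. By the same rule, 7 of the 16 genes with RNAP2 and REV-ERBα (43.8%) had RNAP2 at the end. The share was 18.8% of such comparison genes and 27.9% of those with the strongest RNAP2 regions. Among genes with both RNAP2 and REV-ERBα, the end held REV-ERBα in 10 of 16 (62.5%), against 16.2% of the 751 comparison genes and 27.4% of the 201 among those with the strongest RNAP2 regions. A start held it in 7 of 16 (43.8%), against 49.1% and 58.2%.

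**Figure D5:**
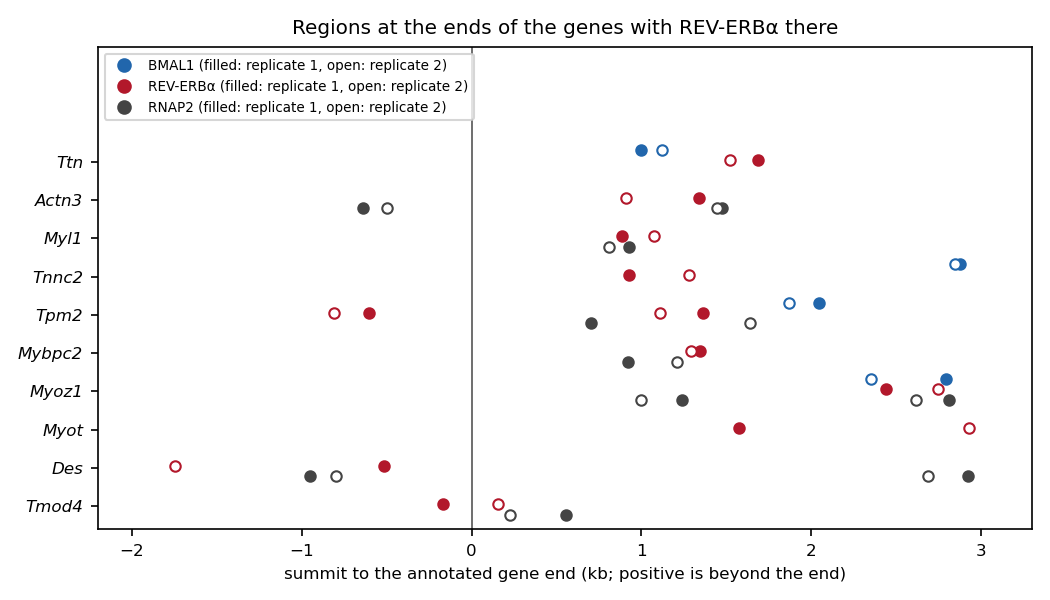
Distance in kb of region summits from the annotated gene end (0; positive is beyond it) for the 10 genes with REV-ERBα there: REV-ERBα in red, RNAP2 in grey and BMAL1 in blue, with replicate 1 filled and replicate 2 open. The stretch searched runs from 1 kb inside to 3 kb beyond the end, so most of it lies beyond by the rule. Most REV-ERBα summits do too, such as 1363 and 1110 bp for *Tpm2*, and nothing is concluded from that.

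BMAL1 regions were found at 12 of the 43 genes, all with RNAP2, which is 34.3% of the 35, against 10.2% of the comparison genes and 13.2% of the 1000 with the strongest RNAP2 regions. Within 10 kb of a start there were 11 (31.4%), against 6.26%, and within 1 kb of a start 6 (17.1%), against 1.38%. They comprised 5 of 7 fast genes and 0 of 7 slow genes. The values were low: 6 of the 30 regions had a strength of at least 3, and the median of 2.40 stands beside 1.87 for all BMAL1 regions. Without replicate 1, and so with the much longer list alone, 40 of the 43 genes had a peak, as 93.1% of the comparison genes did, and without replicate 2 there were 22, against 48.3%. The 43 include genes without an RNAP2 region, which the comparison genes do not.

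The strongest BMAL1 regions were at *Tnnc2*, beyond the end of the gene, with 6.60 and 4.53, at *Tpm1*, with 4.74 and 5.18 over an exon, and at *Mybpc2*, with 4.56 and 4.25 in an intron 1308 and 1236 bp from the start. *Tpm1* held 8 BMAL1 regions, the most of any gene here, of which 3 exceeded a strength of 3. *Actn3* had one of 4.74 and 3.596, but it lay beyond the end of the gene. Its summits were 8453 and 8346 bp from the nearest annotated start of *Actn3*, and 25 bp from a start of *Ctsf*. *Myl1* had 2.75 and 2.89 at its promoter, *Myoz1* 4.12 and 2.98 upstream, and *Tpm2* 3.88 and 2.98 beyond its end. *Ttn* held 6 regions between 1.87 and 2.40 in strength. *Neb*, *Mybpc1*, *Pdlim3* and *Xirp2* had strengths of 2.40, 2.69, 1.38 and 1.58. *Mybpc1*, *Pdlim3* and *Xirp2* had BMAL1 but no REV-ERBα region.

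The BMAL1 windows are shown because one of them carries the factor's own motif.
*Actn3* and *Ctsf* (chr19:4855005-4855204, minus strand): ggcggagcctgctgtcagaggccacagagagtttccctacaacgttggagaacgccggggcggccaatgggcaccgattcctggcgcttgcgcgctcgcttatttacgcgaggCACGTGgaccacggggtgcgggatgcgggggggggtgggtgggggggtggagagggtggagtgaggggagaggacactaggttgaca
*Tnnc2*, beyond the end (chr2:164774184-164774383, minus strand): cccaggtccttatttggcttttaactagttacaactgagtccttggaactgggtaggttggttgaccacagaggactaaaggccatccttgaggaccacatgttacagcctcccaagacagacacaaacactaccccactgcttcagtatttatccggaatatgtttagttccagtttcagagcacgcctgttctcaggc
*Tpm1*, exon (chr9:67031359-67031558, minus strand): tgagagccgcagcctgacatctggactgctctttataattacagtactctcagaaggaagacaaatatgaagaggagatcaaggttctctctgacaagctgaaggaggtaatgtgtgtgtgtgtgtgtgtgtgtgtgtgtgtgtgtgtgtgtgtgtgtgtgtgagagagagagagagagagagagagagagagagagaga
CACGTG was in 1 of the 30 BMAL1 windows, the one at the start of *Ctsf* (3.33%, against 2.55% of all 2742). CAGCTG was in 6 (20%, against 7%), the MEF2 motif in 3 (10%, against 5.65%) and AGGTCA in 3 (10%, against 10.7%). The *Tpm1* window ends in a run of gt and ga repeats, whose part in the call was not tested.

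Both factors had regions at 9 genes (*Ttn*, *Neb*, *Actn3*, *Myl1*, *Tnnc2*, *Tpm1*, *Tpm2*, *Mybpc2* and *Myoz1*), 25.7% of those with RNAP2, against 1.86% of the comparison genes. *Mylpf*, *Mybph*, *Myom1*, *Myot*, *Ldb3*, *Des*, *Tmod4* and *Flnc* had REV-ERBα only, and 23 genes had neither. Sites where 3 or 4 of the BMAL1 and REV-ERBα lists had overlapping peaks, called shared sites, lay at 12 genes (34.3% of those with RNAP2), against 2.91%. These lists may share an input, and its part in the shared sites was not tested.

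A second list of 30 sarcomere genes, also chosen with results known, held 24 genes with RNAP2 (80%, against 41.1%). Of these 24, 10 had REV-ERBα (41.7%, against 8.35%). Over all 30, with or without RNAP2, 10 had BMAL1 and 10 a shared site (33.3% each). The comparison genes, which all have RNAP2, had 10.2% and 2.91%. *Tcap*, which encodes a Z-disc protein that binds titin, had REV-ERBα at a strength of 21.3, *Acta1*, for skeletal actin, at 19.6 and *Myh4*, for the fastest myosin heavy chain, at 13.7. These lie between *Myom1* and *Tpm1*. *Tcap* also had BMAL1 at 10.6, above the 12 genes described here. *Synpo2l*, next to *Myoz1*, took its values of 3.32 for REV-ERBα and 2.98 for BMAL1 from the regions given for *Myoz1*. *Myh7* and *Actc1*, for the slow myosin heavy chain and cardiac actin, had no region of RNAP2, REV-ERBα or BMAL1, and the same held for *Fhl1*, *Pdlim1*, *Ankrd1* and *Igfn1*.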

How the data were processed

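Peak lists of gastrocnemius ChIP-seq were used, 1 per sample, with 2 replicates each for BMAL1 and RNAP2 at ZT4 and REV-ERBα at ZT8. The authors aligned reads to mm10 with BWA (version 7.12 per the submitters' notes), removed duplicates and poorly mapped reads, down-sampled replicates and called peaks per sample over input with MACS2 2.1.1, keeping those with p below 0.05. Each deposited peak has the fold enrichment over local background, a ratio, the −log10 of p and q, and a score, which is −log10 p times 10 and was not used. Weak peaks are therefore kept, and a wide merged region can join several. Read depth per peak is not in the lists.

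Overlap of 1 bp sufficed for merging, and regions with a peak in both replicates were kept. Genes came from GENCODE M21. Comparison genes were all other protein-coding genes with an RNAP2 region in their window. Members, gene groups and lists were chosen with earlier results of these data known, so shares are descriptions and no test over genes was made. Values were named for genes with a REV-ERBα or BMAL1 region, the 10 with the strongest RNAP2 region, fast and slow paralogs and genes without RNAP2. A gene outside the list was named where its start is nearer, from a second fixed list, or, for *Mylk4* and *Pfkfb3*, for its number of REV-ERBα regions after these had been seen. Promoters came from RefSeq and windows from GRCm38.p6, which is mm10. The code (Python 3.11.15, numpy 2.4.6, pysam 0.24.0, matplotlib 3.10.9) was tested on planted peaks. Alternatives were stricter thresholds, equal list lengths, 50% overlap, other windows and single replicates.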

Additional observations from a re-analysis of the deposited data

How the results depend on the processing

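No paired analysis was possible because no result comes from a test between samples. The counts depend most on the threshold and on requiring both replicates. Those of REV-ERBα, BMAL1 and shared sites in a window are here over all 43 genes, while every comparison gene has an RNAP2 region. With peaks of −log10 p of at least 3, 4 genes had BMAL1 (against 0.69% of the comparison genes), 6 a shared site (0.856%), and the median share of the body under RNAP2 was 4.48% (1.29%). With −log10 q of at least 1.3, 23 genes had RNAP2, against 18.9% of all other protein-coding genes. At that threshold 5 had REV-ERBα, 2 REV-ERBα at the gene end, 0 BMAL1 and 0 a shared site. The comparison genes had 2.74%, 0.434%, 0.267% and 0.367%, and the share of the body was 4.50% (1.29%). With lists of equal length 6 genes had BMAL1, against 2.28%. Within 1 kb of a start, 7 had REV-ERBα, 6 BMAL1 and 6 a shared site (4.1%, 1.38% and 1.06%). Taking the peaks of 1 replicate alone, counts ran from 41 to 42 for RNAP2 (all other protein-coding genes 76.9% to 86.4%). They ran from 35 to 38 for RNAP2 at a start (47.9% to 48.9%) and from 29 to 30 for REV-ERBα. For REV-ERBα at the gene end they ran from 14 to 15 (8.2% to 8.47%), and for BMAL1 from 22 to 40. The comparison genes reached 52.6% for REV-ERBα and 93.1% for BMAL1. Leaving out 1 of the 4 BMAL1 and REV-ERBα lists, counts of shared sites ran from 8 to 11 (1.28% to 1.69%). With 1 RNAP2 replicate alone, the share of the body ran from 2.84% to 4.42% (1.35% to 3.02%). The difference between fast and slow isoforms then ran from 9.37 to 21.7 in −log10 p and kept its sign. The larger value came without replicate 2 and the smaller without replicate 1. Without *Ttn*, 29 REV-ERBα regions remained. The windows of the gene end, the nearest start and the count without *Ttn* were chosen after seeing the data.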

Other observations

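At *Ttn*, the REV-ERBα region with the highest value in replicate 2 lay just beyond the gene, in a stretch that the gene window leaves out, with 5.04 and 12.3. A weak BMAL1 region of 2.01 and 2.98 lay in the same stretch. *Lmod3* had a REV-ERBα peak of 6.34 at its promoter in replicate 2 and no peak in replicate 1, so it counts as having no region. *Cryab* likewise had a peak of 3.75 beyond its end in replicate 2 alone.

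Several RNAP2 values rest near the floor of the lists. At *Mybpc1*, *Lmod2* and *Smpx* the −log10 p in replicate 2 was 1.99, which is also the median of that whole list.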
